A study of Mus musculus with 2 samples.

Results

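The cells described here are alveolar macrophages with few or no cycle genes detected, taken from mouse lungs that carried breast tumour metastases. They were chosen by RNA: a cell needed a unique molecular identifier (UMI, the tag that counts 1 captured RNA molecule) in at least 4 of the 8 genes Ear2, Fabp1, Plet1, Chil3, Krt79, Siglecf, Car4 and Atp6v0d2. It also needed a UMI in fewer than 3 of the 5 cycle genes Mki67, Top2a, Birc5, Ube2c and Pclaf. Of 6621 cells kept from both libraries, 1188 were members. The distal library held 1179 of them, 33.3% of its 3540 kept cells (95% Clopper-Pearson interval 31.8 to 34.9%). The niche library held 9, 0.292% of its 3081 kept cells (0.134 to 0.554%).

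Labelling-4T1 cells, a form of the Balb/c mammary carcinoma line 4T1 that labels its neighbours, were given by vein to female Balb/c mice, and the lungs were taken after 7 days. Immune cells were sorted from the dissociated tissue by fluorescence and profiled with a droplet kit that counts the 3′ ends of transcripts. The niche library holds sorted cells from around the tumour cells and the distal library sorted cells from elsewhere in the metastatic lung, so both groups come from tumour-bearing animals of 1 strain, sex and time. Each group is 1 library, there is no tumour-free control, and the labels do not say how many animals were used, how old they were and how cells were gated. With 1 library a group nothing below carries a test or a p-value, and every interval covers counting error only.

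Alveolar macrophages live on the air side of the alveolar wall, where they take up and break down surfactant, the lipid and protein film that keeps alveoli open, along with inhaled particles. They arise before and around birth and renew themselves in place. GM-CSF from the epithelium and TGF-beta set their identity through the nuclear receptor PPAR-gamma, and other lung macrophages, which sit in the tissue wall and make the complement protein C1q, do not depend on those signals in the same way.

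The rule genes include Ear2 (eosinophil-associated ribonuclease 2), Chil3 (the chitinase-like protein Ym1), Fabp1 (a fatty acid binding protein), Plet1 (a membrane-anchored epithelial protein), Krt79 (a keratin), Siglecf (a sialic acid-binding receptor), Car4 (carbonic anhydrase 4, on the membrane) and Atp6v0d2 (a subunit of the vacuolar proton pump). Promoters of Ear2, of its neighbouring copy Ear1, which was not in the rule, and of Fabp1 and Plet1 are shown because the Ear pair is nearly identical and each of the 4 holds a C/EBP motif, so they were chosen after the motif search. In the GENCODE M21 annotation of GRCm38 both Ear genes are protein-coding on chromosome 14, Ear2 at chr14:44102654-44103534 on the plus strand and Ear1 at chr14:43818765-43875517 on the minus strand; Fabp1 lies at chr6:71199827-71205023 and Plet1 at chr9:50494525-50505482. Each sequence runs 5′ to 3′ on its gene's strand from upstream of the start into the first transcribed bases, from RefSeq on GRCm38.p6, whose start sites can differ from the GENCODE gene ends. Capitals mark exact matches on either strand to the C/EBP motif TTGCNNAA or to AGGTCA, which nuclear receptors bind.
Ear2 (chr14:44102404-44102703, plus strand): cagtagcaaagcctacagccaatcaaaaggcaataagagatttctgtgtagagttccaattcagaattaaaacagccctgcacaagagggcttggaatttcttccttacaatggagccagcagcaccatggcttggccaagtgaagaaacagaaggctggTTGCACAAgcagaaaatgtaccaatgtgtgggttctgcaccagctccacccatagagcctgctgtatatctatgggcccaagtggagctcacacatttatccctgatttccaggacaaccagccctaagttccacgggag
Ear1 (chr14:43819590-43819889, minus strand): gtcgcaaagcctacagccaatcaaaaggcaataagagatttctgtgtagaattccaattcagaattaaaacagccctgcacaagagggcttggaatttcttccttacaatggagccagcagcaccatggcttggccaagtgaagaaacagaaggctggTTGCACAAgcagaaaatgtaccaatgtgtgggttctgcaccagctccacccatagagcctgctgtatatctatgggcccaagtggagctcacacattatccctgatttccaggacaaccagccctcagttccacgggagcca
Fabp1 (chr6:71199629-71199928, plus strand): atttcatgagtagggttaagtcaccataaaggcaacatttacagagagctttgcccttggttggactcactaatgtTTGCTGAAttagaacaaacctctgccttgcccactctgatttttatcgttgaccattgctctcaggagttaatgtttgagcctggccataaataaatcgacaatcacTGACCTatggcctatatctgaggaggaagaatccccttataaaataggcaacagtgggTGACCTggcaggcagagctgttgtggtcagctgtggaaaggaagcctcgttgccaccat
Plet1 (chr9:50494275-50494574, plus strand): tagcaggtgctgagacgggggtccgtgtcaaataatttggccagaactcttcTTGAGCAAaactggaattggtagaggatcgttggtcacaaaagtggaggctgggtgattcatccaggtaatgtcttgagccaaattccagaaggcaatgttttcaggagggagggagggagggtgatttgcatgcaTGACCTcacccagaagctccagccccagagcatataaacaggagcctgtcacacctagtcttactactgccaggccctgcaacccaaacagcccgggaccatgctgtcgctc

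The Ear1 and Ear2 stretches were identical at 294 of 303 aligned positions (97.0%), and each held 1 C/EBP match, at base 159 in Ear1 and base 161 in Ear2. Fabp1 held 1 C/EBP match and 2 of AGGTCA, and Plet1 held 1 of each. Among the 7 rule genes with a RefSeq promoter, 3 held the C/EBP motif, 2 AGGTCA and 1 (Chil3) the PU.1 motif AGGAAGT. Of the 15 genes with the highest ratio to C1q macrophages, 11 had promoters, 13 in all, of which 5 held the C/EBP motif, 1 AGGTCA and 0 the PU.1 motif. Among all 32851 promoters of this length, 10.8% held the C/EBP motif, 16.3% AGGTCA and 9.35% the PU.1 motif. A match describes letters in this window and is no evidence of binding.

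Levels below are in CPM, the UMIs of a gene summed over the cells of a set and scaled to a common total. The number of rule genes per cell separated the distal cells into low and high groups. There were 1685 distal cells with 0 of the 8 genes, 477 with 1, 84 with 2 and 18 with 3, then 54 with 4, 222 with 5, 460 with 6, 394 with 7 and 146 with 8. In the niche library 2744 cells had 0 and 293 had 1, and 10 cells had 4 or more. Just outside the threshold, the 18 distal cells with 3 genes had Ear2 at 675 CPM and Chil3 at 977 CPM. Just inside it, the 51 non-cycling cells with 4 genes had Ear2 at 1755 CPM and Chil3 at 1706 CPM, with Siglecf in 1 cell and Krt79 in 0. Cells were fewest at 3 rule genes, on the low side of the threshold.

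**Figure D1:**
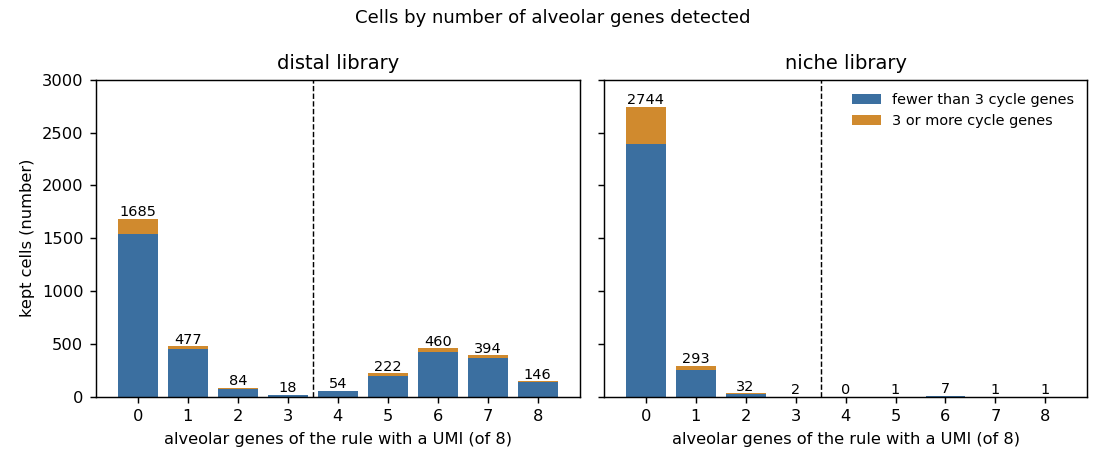
Number of kept cells (vertical axis) by how many of the 8 alveolar rule genes had a UMI (horizontal axis), in the distal and the niche library. The distal cells have a low point of 18 cells at 3 genes, and the niche cells lie almost wholly at 0 and 1.

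In the distal members Ear2 and Plet1 each had a UMI in 99.5% of cells, Chil3 in 99.2%, Atp6v0d2 in 96.0%, Fabp1 in 77.7%, Car4 in 75%, Siglecf in 51.9% and Krt79 in 29.7%. Summed over the members the levels were 1950.3 CPM for Ear2, 1048 CPM for Plet1, 2879.8 CPM for Chil3, 689 CPM for Atp6v0d2, 596 CPM for Fabp1, 581 CPM for Car4, 111 CPM for Siglecf and 113 CPM for Krt79. The 341 T cell-like cells (at least 3 of Cd3d, Cd3e, Cd3g, Trac, Trbc2 and Lck) should lack these genes. In them Chil3 stood at 22.9 CPM, Ear2 at 11.8 CPM and the other 6 genes between 0 and 5.88 CPM. Whether those UMIs came from free RNA or from a second cell in the droplet was not tested. Median depth was 7232 UMIs in members and 2883 in these T cell-like cells. After each cell was thinned to 2000 UMIs, the share of members with a UMI was 92.7% for Ear2, 95.3% for Chil3 and 19.9% for Siglecf. These values chose the cells and carry no support of their own.

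Some rule genes had further sources in the distal library. A class was called there by a UMI in at least 3 of its 6 fixed markers, with no other class met. Ear2 was present in 72.9% of the 155 non-classical monocyte-like cells at 682 CPM, and in 61.8% of them after thinning, against 4.40% of T cell-like cells unthinned. Chil3 was present in 27.6% of the 98 classical monocyte-like cells at 189 CPM, and Car4 in 34.3% of the 67 endothelium-like cells at 452 CPM. Ear2, Chil3 and Car4 singly were thus not limited to the members in this library.

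**Figure D2:**
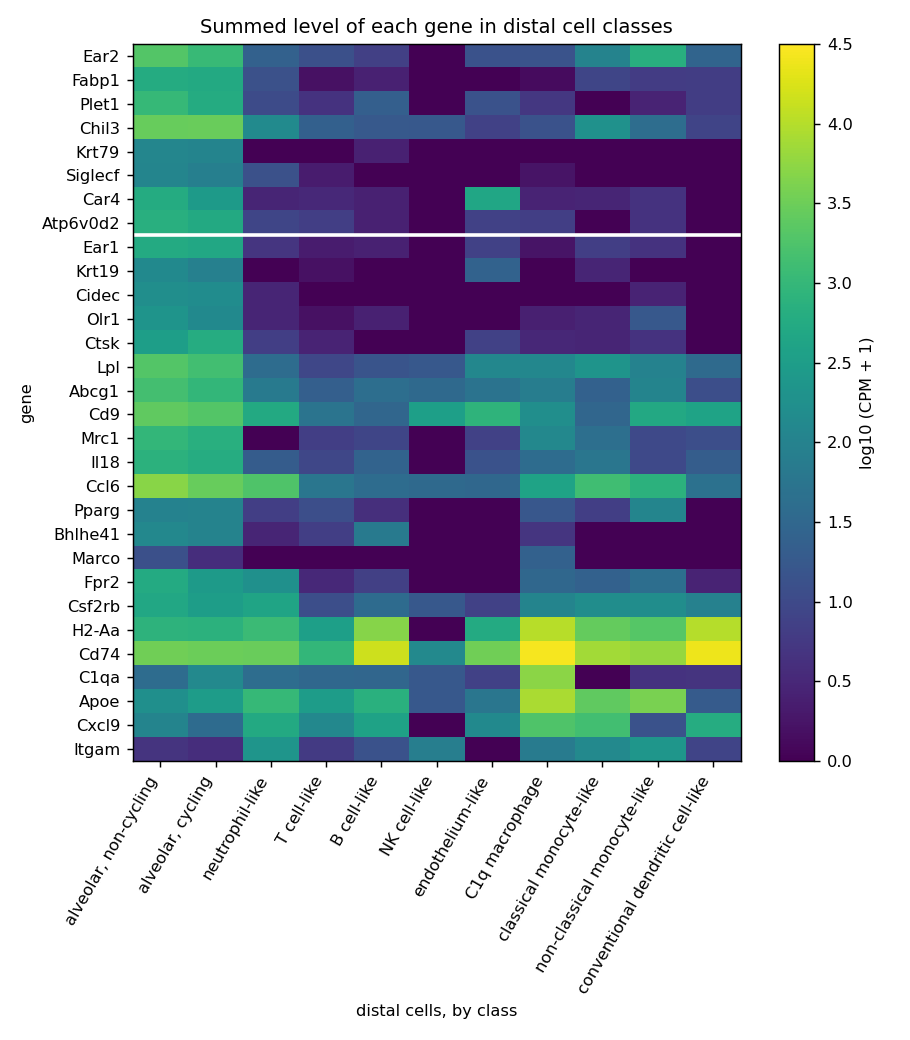
Level of each gene (rows; the 8 rule genes lie above the white line) in the distal members and the other distal classes (columns), as colour for log10 of summed CPM + 1, 1 library with no replicates. Ear2 reaches 682 CPM in non-classical monocyte-like cells and Car4 452 CPM in endothelium-like cells, while Cidec and Krt19 are at 0 in C1q macrophages.

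The members' depth ran from 1576 to 20905 UMIs, with a median of 2544 genes and 4.23% mitochondrial UMIs. The distal library had 22323465 UMIs over 3945 barcodes, of which 405 were removed, and the niche library 38036915 UMIs over 3242 barcodes, of which 161 were removed. The libraries shared 4 barcode sequences, and 1 distal member carried one of them. Of the members, 117 (9.92%) carried at least 3 of the 6 markers of another class: 42 those of neutrophils, 38 of T cells, 17 of B cells, 14 of classical monocytes, 11 of C1q macrophages and 4 or fewer of each other class. Their median depth was 8469 UMIs against 7083 in the rest. The 42 members with neutrophil markers held 91.3% of the members' S100a9 UMIs, and the 38 with T cell markers held 94.2% of their Cd3d UMIs. S100a9 and Cd3d are among the markers that chose those members, so a high share was partly built in. Whether these droplets hold more than 1 cell was not tested, and values without them are given beside each fold to C1q macrophages that they moved by over 1.5 times.

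Markers of cells that could carry alveolar rule genes without being macrophages were low, apart from Epcam. The eosinophil list, which matters because eosinophils also carry Siglecf, summed to 0.444 CPM with Epx, Prg2, Prg3 and Ear6 at 0. The endothelial list summed to 4.99 CPM with Cldn5 and Tie1 at 0, and the alveolar epithelial list to 88.8 CPM, against 1618 CPM in T cell-like cells. The carcinoma and epithelium list summed to 65.8 CPM, against 11.2 CPM in T cell-like cells, with Krt8, Krt14 and Cldn4 at 0. Of that sum 65.3 CPM was Epcam, an epithelial adhesion molecule, which was in 32.4% of members and stood at 65.6 CPM without the droplets of mixed markers. The log2 CPM ratio of Epcam in members was 5.67 to C1q macrophages and 1.72 to all other distal cells.

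Against 337 C1q macrophages of the same library, 905 of 7845 genes were higher (11.5%) and 403 lower (5.14%). These C1q macrophages had a UMI in at least 4 of 6 markers, which include C1qa, C1qb, C1qc, Ms4a7 and Cd72. They had fewer than 4 rule genes and met the marker threshold of no other class. The 252 distal cells that met more than 1 class were put in none, whereas members with markers of another class were kept. A gene was called when the 95% interval of the CPM ratio lay wholly beyond 2-fold, among genes with at least 100 UMIs over both sums. The median log2 ratio over all genes was 0.28. Against all 2361 other distal cells, which include 97 cycling alveolar cells, 764 of 9548 genes were higher (8%) and 1085 lower (11.4%), with a median of 0.08. Because the cells were grouped by their RNA, these counts describe the groups and are no test, and the counts of the gene lists below are read the same way. "Higher" and "lower" are used below for called genes, with C1q macrophages as the other set unless another is named.

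The alveolar programme outside the rule was high in the members. Of 21 identity genes in the matrix 20 could be compared, and 17 were higher and 0 lower, with a median log2 ratio of 4.20. Set against all other distal cells, the list had 17 higher and 0 lower of 20, median 3.00. Ear1, the neighbour of Ear2, stood at 569 CPM in members against 0.732 CPM, which is 2 UMIs, in C1q macrophages, a ratio of 622 (95% interval 215 to 6418). Cidec, which enlarges lipid droplets, was at 166 CPM against 0 UMIs and so at least 151-fold higher, taking 3 UMIs as the most that 0 allows over the summed cells. Krt19, a keratin, was at 136 CPM against 0 UMIs and at least 124-fold higher. Perp, a desmosomal membrane protein, was at 94.8 CPM against 0 UMIs and at least 86.4-fold higher. These bounds hold for the rule as given: with at least 5 rule genes asked, some cells with these genes pass to the C1q set, and the log2 ratios were 7.05 for Cidec, 7.25 for Krt19 and 5.32 for Perp. With the rule applied to thinned cells, Ear1 had a log2 ratio of 6.58 in place of 9.28.

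Surface and secreted genes of the identity list were higher in the same way. Cd9, a tetraspanin, was at 2514 against 165 CPM (15.2-fold higher, 95% interval 13.9 to 16.8). Mrc1, the mannose receptor CD206, was at 959.6 against 124 CPM (7.73-fold higher, 95% interval 6.94 to 8.65). Olr1, the oxidised lipoprotein receptor LOX-1, was at 209 against 1.46 CPM (127-fold higher, 95% interval 55.7 to 525). Secreted and enzymatic members included Lpl, lipoprotein lipase, at 1989 against 119.6 CPM (16.6-fold higher, 95% interval 14.9 to 18.6) and the cytokine gene Il18 at 781 against 38.0 CPM (20.4-fold higher, 95% interval 16.9 to 25.1). Ctsk, the lysosomal collagenase cathepsin K, was at 329 against 2.19 CPM (138-fold higher, 95% interval 68.8 to 409), and F7, coagulation factor VII, at 357 against 9.14 CPM (38.2-fold higher, 95% interval 26.4 to 60.3). With the rule on thinned cells the log2 ratio of Ctsk was 5.67 in place of 7.11, and with a mitochondrial maximum of 5% that of Olr1 was 10.02 in place of 6.99. Cdh1, E-cadherin, reached 27.1 against 0.732 CPM (29.7-fold higher, 95% interval 10.1 to 307).

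The classical surface marker genes did not all follow. Itgax, which encodes CD11c, was at 280.2 against 136 CPM (a ratio of 2.05, 95% interval 1.84 to 2.30) and was not called, since the interval reached below 2-fold. Marco, a scavenger receptor widely used to stain alveolar macrophages, was at 11.8 against 24.1 CPM (log2 ratio -1.04, 95% interval -1.49 to -0.57) and was found in 2.97% of members. Il1rn, the interleukin 1 receptor antagonist, was at 128 against 87.8 CPM and was not called. Fabp4, a fatty acid binding protein, was low on the CPM scale in both sets but higher in members, at 26.9 against 7.32 CPM (3.59-fold higher, 95% interval 2.33 to 6.12). Ear10 had 0.222 CPM. The last 400 bases of the Ear1 and Ear2 transcripts are 96% identical and those of Ear2 and Ear10 92.2%, so 3′ counts may be split between these copies and their separate levels are uncertain.

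Of 15 tested genes of GM-CSF and TGF-beta signalling, 5 were higher and 1 lower (median log2 ratio 0.74). On the GM-CSF side, Csf2rb, the shared beta chain of the receptor, was at 502 against 107 CPM (4.68-fold higher, 95% interval 4.16 to 5.29) and its mouse-specific copy Csf2rb2 at 143 against 26.3 CPM (5.40-fold higher, 95% interval 4.28 to 6.99). Csf2ra, the ligand-binding chain, was at 213 against 214 CPM and was not called. Cish and Socs2, feedback inhibitors switched on by STAT5 below this receptor, were at 33.4 against 4.76 CPM and 56.6 against 10.6 CPM (6.78-fold higher and 5.25-fold higher). On the TGF-beta side the type II receptor gene Tgfbr2 was at 238 against 90.4 CPM (2.63-fold higher, 95% interval 2.31 to 3.0). The type I receptor gene Tgfbr1 was at 155 against 92.9 CPM and was not called, and Smad7, an inhibitor of the pathway, was lower at 6.88 against 21.6 CPM (3.14-fold lower, 95% interval 2.16 to 4.55). Against all other distal cells, 4 of 15 tested genes were higher and 1 lower, with a median log2 ratio of 0.42.

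Of 12 factors tied to the alveolar state 7 were higher and 1 lower (median log2 ratio 1.45). Pparg, the nuclear receptor named above, was at 99.3 against 15.4 CPM (6.39-fold higher, 95% interval 4.74 to 9.03), and its partner Rxra at 68.3 against 10.2 CPM (6.55-fold higher, 95% interval 4.57 to 10.1). Bhlhe41 was at 127 against 4.02 CPM (30.3-fold higher, 95% interval 17.6 to 63.5) and Bhlhe40 at 124 against 35.1 CPM (3.52-fold higher, 95% interval 2.87 to 4.40), a pair of repressors needed for self-renewal of these cells. Tfec, Egr2 and Cebpb were also higher, by 12.2, 4.61 and 2.13 times. Spi1, which encodes PU.1, was at 458 against 456 CPM, and it, Cebpa, Klf4 and Nr1h3 were not called. Runx3 was the lower one, at 7.99 against 124 CPM (15.4-fold lower, 95% interval 12 to 20.3), and at 3.54 CPM, log2 ratio -5.11, without the mixed-marker droplets. The other distal cells as a whole gave 5 higher and 1 lower of 12, median 0.75.

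Of 7 tested factors of other macrophages and monocytes, 0 were higher and 2 lower. Maf, a factor of tissue macrophages that was not among the markers of the C1q macrophages, was lower at 6.22 against 109.7 CPM (17.5-fold lower, 95% interval 13.2 to 23.9), and at 1.90 CPM, log2 ratio -5.81, without the mixed-marker droplets. With all other distal cells in their place the list had 0 higher and 5 lower of 9, median -1.32.

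Genes for each step of lipid handling, from uptake to export, were among the higher ones. Of 29 tested genes for lipid uptake, storage and efflux, 14 were higher and 1 lower, with a median log2 ratio of 1.36. For uptake, Lpl (above) was joined by the lipoprotein receptor Lrp1 at 347 against 69.1 CPM (5.01-fold higher, 95% interval 4.34 to 5.85) and the fatty acid transporter Slc27a1 (3.56-fold higher). For storage, Plin2, the coat of lipid droplets, was at 1563 against 385 CPM (4.06-fold higher, 95% interval 3.81 to 4.32), beside Cidec (above) and the triglyceride-forming enzyme Dgat1 (3.97-fold higher). For release of stored lipid, Nceh1, a cholesteryl ester hydrolase, was at 451 against 42.1 CPM (10.7-fold higher, 95% interval 8.90 to 13) and the monoglyceride lipase Mgll at 203 against 5.85 CPM (33.7-fold higher, 95% interval 21.3 to 60.8). Lipa, the lysosomal acid lipase, was at 543 against 168 CPM (3.24-fold higher, 95% interval 2.94 to 3.57) and Npc1, which moves cholesterol out of lysosomes, at 143 against 26.7 CPM (5.31-fold higher, 95% interval 4.22 to 6.86).

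The cholesterol exporter Abcg1 was at 1442 against 79.4 CPM (18.1-fold higher, 95% interval 15.9 to 20.9), whereas its relative Abca1 was at 58.9 against 32.6 CPM and was not called. The scavenger receptors Cd36, at 58.6 against 62.9 CPM, and Msr1, at 108 against 136 CPM, were not called either, nor was Fabp5 at 365 against 339 CPM. Apoe, the lipoprotein that accepts exported cholesterol, was the lower gene of the list, at 174 against 8649 CPM (49.7-fold lower, 95% interval 47.3 to 52.4). T cell-like cells carried Apoe at 302 CPM, and members without the mixed-marker droplets at 96.9 CPM (log2 ratio -6.48 in place of -5.64), so the members' Apoe level was below that of a class that should lack it. Against all other distal cells, 13 of 30 tested genes were higher and 2 lower, with a median log2 ratio of 1.05.

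Fatty acid oxidation had 5 higher and 0 lower of 22 tested genes (median log2 ratio 0.51). Higher were the peroxisomal thiolase gene Acaa1b at 129.5 against 13.2 CPM (9.71-fold higher, 95% interval 7.06 to 14.1) and Pex11a, which divides peroxisomes, at 49.2 against 2.93 CPM (15.8-fold higher, 95% interval 8.45 to 39.2). Cpt1a, which admits fatty acids to mitochondria, was at 175 against 32.6 CPM (5.33-fold higher, 95% interval 4.33 to 6.72), and the electron carrier subunit Etfb at 310.5 against 125 CPM (2.49-fold higher, 95% interval 2.22 to 2.79). Cholesterol synthesis had 1 higher gene of 16 tested, Mvd, at 44.0 against 10.6 CPM. The respiratory chain and citric acid cycle list had 1 higher of 27 with a median log2 ratio of 0.03, below that of all genes, and glycolysis and hypoxia had 0 higher and 3 lower of 19 (median -0.45). In the comparison with all other distal cells the oxidation list had 6 higher and 0 lower of 23, median 0.74.

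Of 20 lysosomal proteases and membrane proteins 4 were higher and 3 lower than in C1q macrophages (median log2 ratio 0.23), while all other distal cells gave 8 higher and 0 lower of 20, median 0.89. The aspartic protease gene Ctsd was at 4291 against 599 CPM (7.16-fold higher, 95% interval 6.82 to 7.53) and Laptm5 at 1649 against 771 CPM (2.14-fold higher, 95% interval 2.04 to 2.24). Ctss, the protease that trims the class II invariant chain, was at 4826 against 3758 CPM and was not called. Lower were Ctsh at 285 against 954 CPM (3.35-fold lower, 95% interval 3.17 to 3.53), Lgmn at 342 against 945 CPM (2.77-fold lower, 95% interval 2.62 to 2.92) and Ctsc at 979 against 2198 CPM (2.25-fold lower, 95% interval 2.17 to 2.32), all cysteine proteases. Of 14 tested subunits of the proton pump that acidifies lysosomes, apart from the rule gene, 2 were higher, Atp6v0a1 (3.38-fold higher, 95% interval 2.67 to 4.40) and Atp6v1b2 (2.97-fold higher, 95% interval 2.64 to 3.36), and 0 lower. Among 14 enzymes and activators of lysosomal lipid breakdown, 2 were higher and 1 lower; Pla2g15, the lysosomal phospholipase that degrades surfactant phospholipid, was at 211 against 62.9 CPM (3.34-fold higher, 95% interval 2.86 to 3.94). With all other distal cells as the other set, the proton pump list had 3 higher and 0 lower of 14, median 0.94, and the lipid breakdown list 4 higher and 1 lower of 14, median 0.83.

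Receptors for particles and dying cells went both ways, with 8 higher and 7 lower of 24 tested (median log2 ratio -0.05), and 8 higher and 5 lower of 24, median 0.26 when all other distal cells were the other set. The receptors for apoptotic cells Axl, at 565 against 161 CPM (3.51-fold higher, 95% interval 3.19 to 3.88), and Mertk, at 53.8 against 12.8 CPM (4.15-fold higher, 95% interval 2.98 to 6.11), were higher. So were Tlr2, which senses bacterial lipoprotein, at 411 against 99.1 CPM (4.14-fold higher, 95% interval 3.67 to 4.71), the formyl peptide receptor Fpr2 at 569 against 31.1 CPM (18.2-fold higher, 95% interval 14.8 to 22.9), the lectin Clec4n (dectin-2) at 609.7 against 143 CPM (4.27-fold higher, 95% interval 3.86 to 4.75) and Trem1 at 72.5 against 3.66 CPM (18.9-fold higher, 95% interval 10.7 to 41.5). Lower were another receptor for dying cells, Timd4, at 3.11 against 90.7 CPM (28.7-fold lower, 95% interval 19.7 to 44.8), and the scavenger receptor Stab1 at 1.66 against 48.7 CPM (28.4-fold lower, 95% interval 17.1 to 53.7). Timd4 stood at 1.90 CPM, log2 ratio -5.54, without the mixed-marker droplets, and Stab1 at 0.506 CPM, log2 ratio -6.42, without the mixed-marker droplets. Lower too was Itgam, which encodes CD11b, at 3.66 against 73.2 CPM (19.7-fold lower, 95% interval 13.8 to 29.8). Lower as well were 3 of the 4 Fc gamma receptor genes, Fcgr2b at 20.3 against 435 CPM (21.4-fold lower, 95% interval 18.3 to 25.2), Fcgr4 at 141 against 433 CPM (3.08-fold lower, 95% interval 2.84 to 3.33) and Fcgr1 at 136 against 361 CPM (2.66-fold lower, 95% interval 2.44 to 2.89).

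Among 12 inhibitory receptors and ligands 5 were higher and 2 lower, with 5 higher and 1 lower of 12, median 0.32 against all other distal cells. Sirpa, whose product binds CD47 and surfactant proteins, was at 878 against 171 CPM (5.13-fold higher, 95% interval 4.68 to 5.66). Cd200r1, the receptor for the epithelial ligand CD200, was at 113 against 18.3 CPM (6.14-fold higher, 95% interval 4.67 to 8.41), and its relative Cd200r4, on the identity list too, was also higher (7.85-fold higher, 95% interval 6.03 to 10.6). Cd274, which encodes PD-L1, was at 197 against 62.2 CPM (3.16-fold higher, 95% interval 2.70 to 3.73) and Pilra at 227 against 79.4 CPM (2.86-fold higher, 95% interval 2.49 to 3.31). Clec12a (5.41-fold lower, 95% interval 4.80 to 6.10) and the interleukin 10 receptor chain Il10rb (3.29-fold lower, 95% interval 2.81 to 3.85) were lower.

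Class II antigen presentation was lower. Of 11 tested genes, 10 were lower and 0 higher, with a median log2 ratio of -3.06, and all other distal cells gave 0 higher and 11 lower of 14, median -2.42. The chain genes were at 821 against 10210.2 CPM for H2-Aa (12.4-fold lower, 95% interval 12.1 to 12.8), 828 against 9464 CPM for H2-Ab1 (11.4-fold lower, 95% interval 11.1 to 11.7) and 556 against 9736 CPM for H2-Eb1 (17.5-fold lower, 95% interval 17.0 to 18.0). Cd74, the invariant chain, was at 3349 against 27887 CPM (8.33-fold lower, 95% interval 8.22 to 8.44). Ciita, the master activator of these genes, was at 7.21 against 44.3 CPM (6.11-fold lower, 95% interval 4.5 to 8.43), and the costimulators Cd86 and Cd40 were 16.4-fold lower and 22.6-fold lower. T cell-like cells carried 344 CPM of H2-Aa and 962 CPM of Cd74, and members without mixed markers 673 and 2996 CPM, so both stood above that class.

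Class I presentation had 0 higher and 0 lower of 12 genes (median log2 ratio -0.27), with H2-D1 at 4409 against 5725 CPM and B2m at 4173 against 3738 CPM. Complement had 7 lower and 0 higher of 10 tested, and 1 higher and 7 lower of 11, median -2.82 against all other distal cells. C1qa, C1qb and C1qc chose the comparison cells. C1qa was at 38.0 CPM in members against 30.6 CPM in T cell-like cells, and at 6.07 CPM, log2 ratio -9.75, without the mixed-marker droplets. Outside the C1q genes, the receptor gene C3ar1 was at 2.0 against 153 CPM (74.7-fold lower, 95% interval 47.9 to 131), and at 0.253 CPM, log2 ratio -8.92, without the mixed-marker droplets. C4b was at 7.33 against 84.9 CPM (11.5-fold lower, 95% interval 8.78 to 15.5), while C3, at 265 against 143 CPM, and the receptor gene C5ar1, at 106 against 58.2 CPM, were not called.

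Interferon-response genes had lower median ratios than all genes. Of 22 type I interferon genes 0 were higher and 6 lower (median log2 ratio -0.82). Examples are Isg15 at 197 against 501 CPM (2.54-fold lower, 95% interval 2.36 to 2.72) and Irf7 at 133 against 425 CPM (3.20-fold lower, 95% interval 2.95 to 3.47). Of 18 tested interferon gamma genes 1 was higher and 9 lower (median -1.22), among them the GTPase gene Iigp1 at 11.5 against 179 CPM (15.5-fold lower, 95% interval 12.5 to 19.4) and Serpina3g at 67.9 against 238 CPM (3.51-fold lower, 95% interval 3.14 to 3.93). The higher gene was Cd274 (above). Against the other distal cells the type I list had 0 higher and 6 lower of 22, median -0.56, and the interferon gamma list 1 higher and 6 lower of 18, median -0.96.

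Most chemokine genes were lower. Of 18 tested, 14 were lower and 1 higher, with a median log2 ratio of -4.39. The higher one was Ccl6, a CC chemokine, at 4947 against 406 CPM (12.2-fold higher, 95% interval 11.5 to 13), with 58.2 CPM in T cell-like cells. Ccl8, a monocyte attractant, was at 11 against 846 CPM (76.6-fold lower, 95% interval 63.0 to 95.1), and at 2.28 CPM, log2 ratio -8.50, without the mixed-marker droplets. Ccl2, another, was 32.2-fold lower. Cxcl9, which attracts T cells through CXCR3, was at 106 against 1853 CPM (17.5-fold lower, 95% interval 16.3 to 18.8). The members' sum lay below the 124 CPM of T cell-like cells, but Cxcl9 was uneven among the members. In sub-cluster 2, described below, it was at 218 CPM, against 44.2 CPM in the other members. There 22.6% of cells had a Cxcl9 UMI, against 7.93% of the others. The sub-cluster was formed from these same counts, so its excess was partly built in. Cxcl2, which attracts neutrophils, was at 463 against 1297 CPM (2.80-fold lower, 95% interval 2.68 to 2.93). Cxcl13, which attracts B cells, was at 0.333 against 125 CPM (322-fold lower, 95% interval 127 to 1825), though only 6.23% of C1q macrophages carried it. Against all other distal cells, 2 of 20 tested genes were higher and 14 lower, with a median log2 ratio of -3.68.

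Cytokines and growth factors had 4 higher and 3 lower of 9 tested against C1q macrophages, but 3 higher and 10 lower of 18, median -1.83, against all other distal cells. Il18 (above), Spp1 (osteopontin) at 1242 against 198 CPM (6.26-fold higher, 95% interval 5.75 to 6.84), Il1a at 106 against 30.4 CPM (3.47-fold higher, 95% interval 2.78 to 4.42) and Osm (oncostatin M) at 175 against 72.4 CPM (2.41-fold higher, 95% interval 2.08 to 2.82) were higher. Il1b was at 831 against 2169 CPM (2.61-fold lower, 95% interval 2.52 to 2.70) and Tnf at 26.4 against 97.3 CPM (3.68-fold lower, 95% interval 3.08 to 4.41), both lower. Within the interleukin 1 family, then, Il1a and Il18 stood on the other side from Il1b. The list's median log2 ratio was 0.55, and -1.63 when genes with as few as 20 UMIs were let in. The eicosanoid enzymes had 2 higher and 4 lower of 12 tested, and 3 higher and 4 lower of 13, median 0.41 against all other distal cells. The higher ones both lie on the leukotriene path, Alox5 (5-lipoxygenase) at 93.5 against 12.1 CPM (7.63-fold higher, 95% interval 5.47 to 11.3) and Ltc4s (leukotriene C4 synthase) at 392.0 against 43.2 CPM (9.05-fold higher, 95% interval 7.56 to 11). Lower were the prostaglandin genes Ptgs1 (3.36-fold lower), Ptgs2 (13.1-fold lower) and Hpgds (9.06-fold lower), and Pla2g7 (13.6-fold lower), which breaks down platelet-activating factor. Ptgs2 stood at 2.15 CPM, log2 ratio -4.97, without the mixed-marker droplets.

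Adhesion genes and tetraspanins had 4 higher and 3 lower of 14 tested, and 4 higher and 1 lower of 14, median 0.12 against all other distal cells. The hyaluronan receptor gene Cd44 was at 1078 against 129 CPM (8.31-fold higher, 95% interval 7.48 to 9.28) and the integrin gene Itgal at 231 against 34.4 CPM (6.69-fold higher, 95% interval 5.46 to 8.35). Cd81, a tetraspanin, was lower at 143 against 534 CPM (3.74-fold lower, 95% interval 3.47 to 4.04). Proteases and their inhibitors had 4 higher and 4 lower of 9 tested, with a median log2 ratio of 0.57, or -1.74 with genes of 20 UMIs let in. All other distal cells gave the other sign, 4 higher and 7 lower of 14, median -1.22. Slpi, an inhibitor of neutrophil elastase, was at 1142 against 225 CPM (5.07-fold higher, 95% interval 4.68 to 5.52) and Mmp19 at 70.7 against 4.76 CPM (14.3-fold higher, 95% interval 8.63 to 28.1). Mmp14 (43.9-fold lower, 95% interval 27.9 to 77.3), Mmp12 (4.0-fold lower, 95% interval 3.56 to 4.51) and the cathepsin inhibitor Cst3 (3.32-fold lower, 95% interval 3.25 to 3.40) were lower.

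Mmp8, the neutrophil collagenase, was at 43.0 against 1.10 CPM (33.6-fold higher, 95% interval 13.3 to 191) and in 21.6% of members. The 42 members with neutrophil markers, which include Mmp8 and S100a9, held 12.1% of the Mmp8 UMIs but 91.3% of those of S100a9. Without the mixed droplets Mmp8 stood at 38.7 CPM and S100a9 at 12.6 CPM. Antioxidant and metal-handling genes had 2 higher and 1 lower of 19 tested (4 higher and 5 lower of 22, median 0.45 against all other distal cells), with the metallothionein gene Mt2 at 126 against 17.6 CPM (7.12-fold higher, 95% interval 5.38 to 9.81) and Txnrd1, thioredoxin reductase, at 89.0 against 34.8 CPM (2.55-fold higher, 95% interval 2.07 to 3.20). Slc11a1, the phagosomal iron transporter NRAMP1, was at 2.0 against 143 CPM (69.6-fold lower, 95% interval 44.6 to 122), and at 0.379 CPM, log2 ratio -8.33, without the mixed-marker droplets. Genes that tissue digestion can induce were lower in 13 and higher in 0 of 19 cases (median log2 ratio -1.37), and what part digestion had in other differences was not tested.

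**Figure D3:**
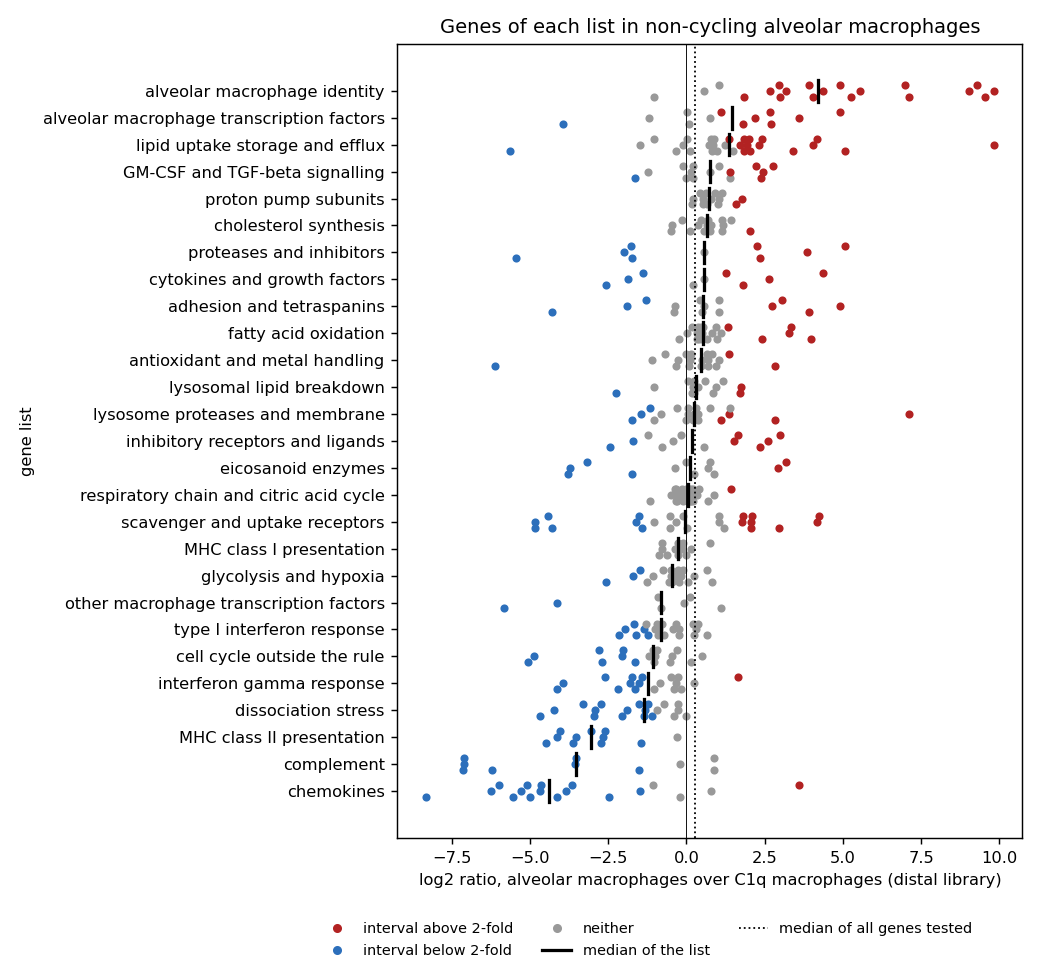
Log2 CPM ratio of members to C1q macrophages (horizontal axis) for every tested gene (point) of each list (vertical axis), coloured by whether its 95% interval lay beyond 2-fold; bars are list medians and the dotted line is the median of all genes. Of the lists shown, alveolar identity has the highest median, 4.20, and chemokines the lowest, -4.39.

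Ranked over all genes, the highest ratios to C1q macrophages went to further genes with few or no UMIs there. Phgdh, the first enzyme of serine synthesis, was at 154 CPM against 0 UMIs, at least 140.2-fold higher, though T cell-like cells had 116 CPM. Kcnn3, a calcium-activated potassium channel gene, was at 88.4 CPM and at least 80.5-fold higher, and Slc6a4, the serotonin transporter gene, at 79.6 CPM and at least 72.5-fold higher. Slc7a2, which carries arginine and lysine, was at 584 against 7.32 CPM (77.8-fold higher, 95% interval 51.6 to 131), and Ly75, an endocytic receptor gene, at 179.6 against 1.46 CPM (109-fold higher, 95% interval 47.8 to 451). Wfdc21 was at 356 CPM against 1 UMI, but neutrophil-like cells had 1509 CPM. Rarres1, Plekhg1 and Kazald1 completed the 15 with Cidec, Krt19, Perp, Ear1, Ctsk and Olr1. With the rule on thinned cells the log2 ratios were 6.43 for Phgdh, 7.49 for Kcnn3, 6.59 for Slc6a4 and 5.98 for Wfdc21, all still on the higher side.

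The lowest ratios outside the C1q genes belonged to Cxcl13, Retnla, Prg4, Fxyd2, Ccl8, C3ar1, Cd72, Slc11a1, Vcam1, Ccl12, Cpq and Blnk. Of these, Cd72 was among the markers that chose the C1q macrophages, so its low ratio was partly built in. Retnla, a secreted resistin-like protein gene, was at 1.66 against 270.3 CPM (157-fold lower, 95% interval 97.8 to 292), with UMIs in 3.26% of C1q macrophages, and Prg4, a lubricating proteoglycan gene, was found in 1.48% of them. Those ratios therefore rest on few C1q macrophages, unlike Vcam1, an adhesion gene at 1.11 against 76.1 CPM and found in 24.0% of them. Without the mixed-marker droplets Vcam1 stood at 0.379 CPM (log2 ratio -7.43 in place of -6.03).

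Against all other distal cells the highest ratios were those of Kcnn3 (20.3-fold higher, 95% interval 15.6 to 27.4), Slc39a2, a zinc importer (19.5-fold higher, 95% interval 15.5 to 25.3), Slc7a2 (15.8-fold higher, 95% interval 14.3 to 17.4), Mfsd7c (15.7-fold higher), Rarres1, Olr1, Plekhg1, Krt19, Adcy3 and Slc6a4. The cycling alveolar cells in that set carry the same genes, which limits these ratios. The lowest were the surfactant gene Sftpc, at 11.7 against 2429 CPM (207-fold lower, 95% interval 172 to 255), Sftpa1, Xcl1, Cxcl15, Sftpb, Retnla, Stfa2l1, Igfbp7, Nusap1 and Retnlg. Sftpc, Sftpa1, Sftpb and Cxcl15 are made by lung epithelium, Xcl1 by lymphocytes, and Stfa2l1 and Retnlg by neutrophils.

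By level, the members' RNA was led by Tmsb4x (21519 CPM), Lyz2 (18593 CPM), Fth1 (17885 CPM), Malat1 (16932 CPM), Ftl1 (12048 CPM) and Actb (11027 CPM), that is a cytoskeletal regulator, lysozyme, both ferritin chains, a nuclear RNA and actin. Counts of 3′ ends are not per length and give no order of protein. Among the 20 highest, Lyz2 was at 9161 CPM in C1q macrophages against 18593 CPM in members (2.03-fold higher, 95% interval 2.0 to 2.06), Cybb, the catalytic chain of the phagocyte oxidase, at 772 against 3648 CPM in members (4.72-fold higher, 95% interval 4.52 to 4.94), and Lgals3, galectin 3, at 915 against 2896 CPM (3.17-fold higher, 95% interval 3.04 to 3.30).

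Spread among the members was measured after each was thinned to 2000 UMIs, which left 1175 distal members and 3030 genes with a mean of at least 0.1 UMIs. The Fano factor, variance over mean, is near 1 for counting noise alone, and its median over genes was 1.03. S100a9 (61.5) and S100a8 (31.4), neutrophil calgranulins, were highest. Most of their UMIs lay in the members with neutrophil markers (91.3% and 53.4%), a marker list that holds both genes. Then came Mt1, a metallothionein gene (11.8), Lyz2 (11.4), Cd74 (10.5), Fth1 (10.1), Malat1 (9.73), Apoe (8.39), Cxcl2 (6.99), Mt2 (5.91), H2-Eb1 (5.70), Cxcl9 (5.14), Cst3 (5.11), H2-Aa (5.06) and Ccl3 (4.98). Lyz2 ran from 2 to 129 UMIs with a median of 31, and Ear2 from 0 to 17 with a median of 3.

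In the 1058 thinned members without mixed markers, lists were summed per cell. The 6 class II genes had a median of 5 UMIs, were at 0 in 16.2% of cells and reached 130. The type I interferon list had a median of 1, with 27.9% of cells at 0 and a highest value of 49, and the metallothioneins a median of 1, with 31.1% at 0 and a highest value of 85. The lipid sum left out Apoe, whose own Fano factor over the 1175 thinned members was 8.39. The other 30 lipid genes were more even, at 5 to 41 UMIs with a median of 19 and a Fano factor of 1.91. The members thus differed more in interferon, class II and metallothionein RNA than in lipid RNA apart from Apoe on this scale.

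**Figure D4:**
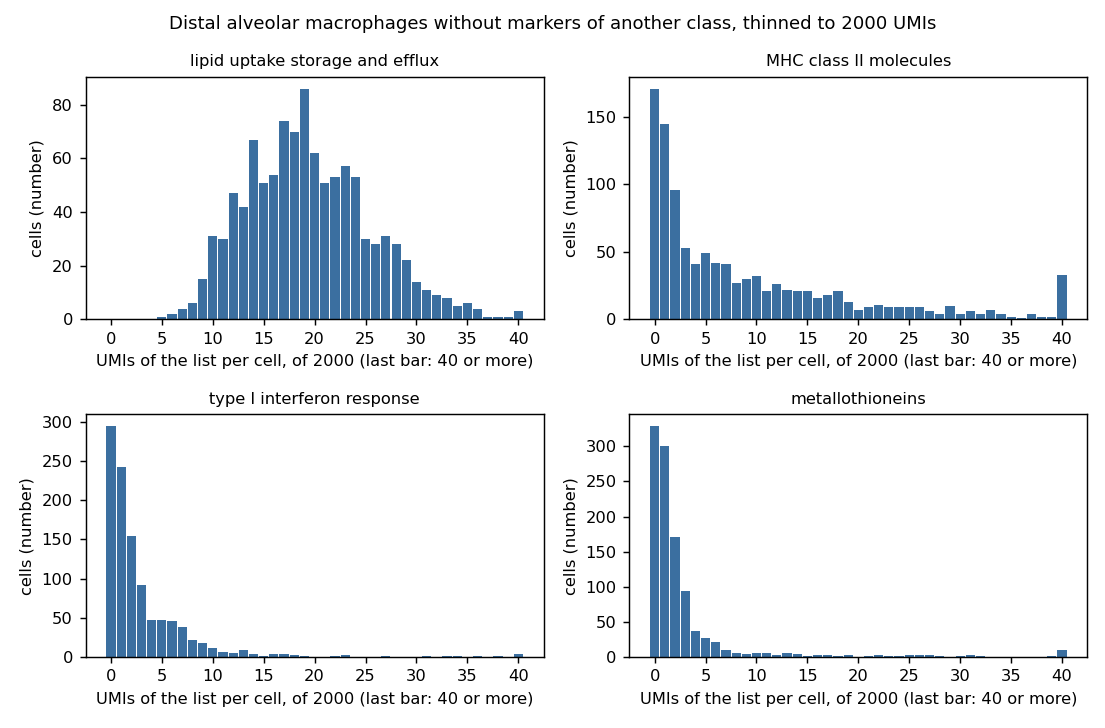
Number of members without mixed markers (vertical axis) by summed UMIs of a gene list (horizontal axis), each cell thinned to 2000 UMIs. The last bar of each panel holds cells with 40 or more UMIs. The lipid sum, taken without Apoe, forms 1 hump around its median of 19 UMIs. The class II, type I interferon and metallothionein sums are highest at 0 and have long tails.

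Clustering of the 1175 thinned members gave 3 sub-clusters, described here by leading genes and left unnamed. The leading genes come from the counts that formed the sub-clusters, so their differences were partly built in. Sub-cluster 1 held 714 cells (60.8%, median 6639 UMIs) and was led by Acaa1b (168 against 82.1 CPM in other members), Emp1, Tob1 and Tmem64. Sub-cluster 2 held 381 cells (32.4%, median 8328 UMIs) and was led by interferon genes, Rsad2 (95.1 against 7.07 CPM), Ifit3 (7.13-fold), Ifit1, Ifi44 and Ifit2. Each of these had a UMI in a minority of its cells, from 14.7% for Rsad2 to 40.9% for Ifi44. In sub-cluster 2 the type I interferon list summed to 2767 CPM against 716 CPM in sub-cluster 1. The class II list summed to 7518 against 3849.5 CPM and the class I list to 16510 against 11252 CPM. Sub-cluster 3 held 80 cells (6.81%, median 9749 UMIs), of which 63 carried mixed markers, 37 of them T cell markers, and was led by Cd3g, Cd3d, Tmem176a, Saa3 and Ms4a4b. The number of sub-clusters was 2 at a resolution of 0.3 and 13 at 1.0, against the 0.5 used here.

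The 97 cycling alveolar macrophages of the distal library meet the same alveolar rule and have UMIs in at least 3 of the 5 cycle genes. Against them, 7 of 7556 genes were higher in the members (0.0926%) and 237 lower (3.14%), and the median log2 ratio over all genes was -0.06. The cycle genes chose both sets. Of 20 replication and mitosis genes outside the rule, 19 were lower (median log2 ratio -3.46). The lowest genes were Esco2 (0.222 against 94.6 CPM, 343-fold lower, 95% interval 115 to 3567), Nusap1, Cenpf, Hmmr, Plk1, Aspm, Ccna2, Hist1h1b, Ndc80 and Prc1, all genes of chromosome copying or division.

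Of the 7 higher genes, those at 50 CPM or more were S100a9 (3.99-fold higher, 95% interval 2.91 to 5.80), Slfn5 (3.12-fold higher, 95% interval 2.01 to 5.46), Cxcl9 (2.91-fold higher, 95% interval 2.13 to 4.19), Slc39a2 (2.90-fold higher, 95% interval 2.14 to 4.13) and the formyl peptide receptor gene Fpr1 (2.77-fold higher, 95% interval 2.22 to 3.53). Without the mixed-marker members the direction of S100a9 turned (log2 ratio -1.44) and Slfn5 was no longer called (log2 ratio 1.58, lower bound 0.93), with the cycling set unchanged. The members' summed Cxcl9, at 106 CPM, stood below the 124 CPM of T cell-like cells. It was at 218 CPM in sub-cluster 2, which was formed from the same counts. Ctsk and Phgdh were not called: Ctsk was at 604 CPM in cycling cells against 329 CPM in members and Phgdh at 281 against 154 CPM. Of the identity list, Slc39a2 was the one gene called. Median depth was 10770 UMIs in cycling cells against 7232 in members, and the part of depth was not tested. The number of higher genes ran from 0 at a fold of 4 to 188 by the mean of each cell's CPM.

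A cell with 1 or 2 cycle genes still counts as a member, and 103 members had 1 and 27 had 2, against 1049 with 0. The summed replication genes stood at 192, 428 and 905 CPM in members with 0, 1 and 2 cycle genes and at 1273 CPM in cycling cells. Mitosis genes stood at 33.7, 109 and 248 CPM, and at 2093 CPM in cycling cells. Pcna, the replication clamp, was at 52.8, 84.2 and 190.0 CPM and at 186 CPM in cycling cells, while Cdk1, the mitotic kinase, was at 4.42, 14.0 and 33.1 CPM and at 267 CPM. The 27 members with 2 cycle genes had Pcna near the level of the cycling set and Cdk1 far below it. These sets were cut by cycle RNA, and cells with 3 or more cycle genes pass to the cycling set. Both the rise of cycle RNA across the sets and the low Cdk1 in members were therefore partly built in. The alveolar rule genes summed to 7983, 8225 and 6603 CPM and to 6237 CPM in cycling cells.

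**Figure D5:**
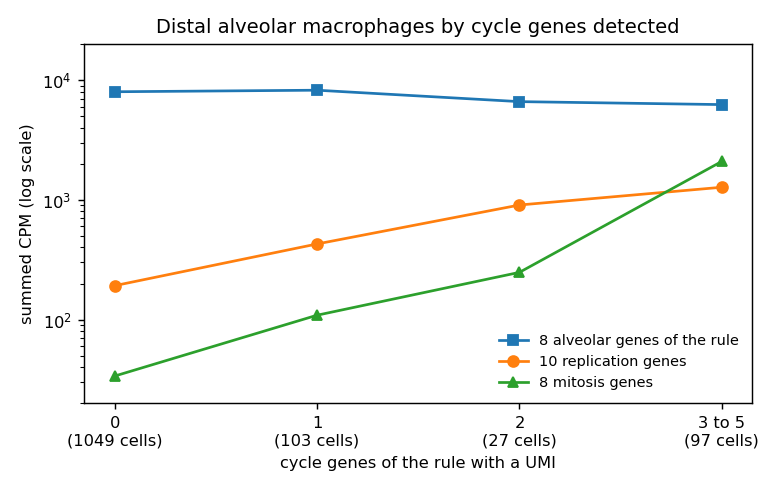
Summed CPM of replication genes, mitosis genes and alveolar rule genes (vertical axis, log scale) in distal alveolar cells with 0, 1, 2 and 3 to 5 of the cycle rule genes (horizontal axis); points are sums over 1049, 103, 27 and 97 cells with no replicates. With 2 cycle genes, replication RNA is at 905 CPM and mitosis RNA at 248 CPM. The sets were cut by cycle genes, so a rise across them was partly built in.

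The 9 members of the niche library had 6573 to 14510 UMIs each, 87662 together. Each carried Ear2 (7 to 40 UMIs), Chil3 (10 to 88), Plet1 (2 to 15), Atp6v0d2 (1 to 13) and Car4 (1 to 23); Fabp1 was in 6 of them, Krt79 in 3 and Siglecf in 2. One of the 9 carried 5 T cell markers and another 5 C1q macrophage markers. Over the 27462 gene entries that both annotations share, the rule genes summed to 9028 CPM in the niche members and 8047 CPM in the distal ones. No niche member shared a barcode with a distal cell.

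Several differences between the niche and distal members rested on 1 cell. Mt1 was at 2441 CPM in the niche members, with 143 of 214 UMIs in 1 cell, and at 971 CPM without it, against 1203 CPM in distal members. Mt2 had 39 of 40 UMIs in 1 cell and Hmox1, haem oxygenase, 26 of 31. Cxcl9 was at 285 CPM with 17 of 25 UMIs in 1 cell, and at 109 CPM without it, against 106 CPM in distal members. Car4 was spread more evenly, at 1049 CPM and 933 CPM without its highest cell, against 581 CPM. The niche members with T cell and C1q macrophage markers held 11 and 18 of its 92 UMIs. Fabp1 was at 205 CPM with 9 of 18 UMIs in 1 cell, and at 113 CPM without it, against 596 CPM. Car4 and Fabp1 are both rule genes that helped to choose these cells. The libraries were made with different software versions and annotations and no test across them was possible.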

How the data were processed

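The deposited files are 2 matrices of raw UMI counts per gene and cell, 1 library for each group. Per the submitters' processing notes Cell Ranger 3.02, Seurat 4.1.1, RSEM and Bowtie2 were used with mm10 (GRCm38), and per the file headers the distal matrix was written by version 3.0.2 and the niche matrix by cellranger-6.0.0. The deposited counts were used as they stand.

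A barcode was kept if it had 200 or more genes and no more than 10% of its UMIs from mitochondrial genes, and members were found by the rule given above. Counts were summed over the cells of a set and scaled to CPM with exact Poisson intervals. A ratio of CPM had 0.5 UMI added to each sum and an exact conditional binomial interval, and a gene was called where the 95% interval lay beyond 2-fold among genes with at least 100 UMIs over both sums. With 1 library a group no p-value was computed. PCR duplicates were removed through UMIs, yet cells of 1 library are not replicates, so intervals and floors cover counting error only. A cell outside the alveolar rule was put in a class by at least 3 of 6 markers (4 for C1q macrophages) of exactly 1 class. No doublet caller was run; members with markers of another class were counted and left out as an alternative. Spread was measured after thinning to 2000 UMIs, and sub-clusters came from Leiden clustering (resolution 0.5, 20 principal components, 15 neighbours, 1500 variable genes). The ratios and Fano factors were tested on simulated data.

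The members and the gene lists were chosen with earlier results of these data known. Named genes were the rule genes, the lists' genes, the 15 highest and 15 lowest called ratios to C1q macrophages with at least 50 CPM in the higher set, the 10 highest and 10 lowest against the other sets (fewer where fewer were called), the 20 highest levels, the 15 highest Fano factors and the 5 leading genes of each sub-cluster; rule, mitochondrial, ribosomal, haemoglobin, immunoglobulin, T cell receptor and predicted genes were left out of the rankings. Some genes that this rule names are not reported here. Promoters came from RefSeq (GRCm38.p6) and gene coordinates from GENCODE M21 (GRCm38). Tools were scanpy 1.11.5 with igraph 0.11.9 and scikit-learn 1.9.0, scipy 1.17.1, numpy 2.4.6, pandas 2.3.3 and matplotlib 3.10.9 under Python 3.11.15.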

Additional observations from a re-analysis of the deposited data

How the results depend on the processing

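Of 108 alternative values for the counts of members and called genes, 82 stayed within 1.5 times of the value reported and 26 did not. A fold of 1.5 in place of 2 gave 1497 genes higher than in other distal cells, 1610 higher and 610 lower than in C1q macrophages, and 63 higher and 398 lower than in cycling cells; a fold of 4 gave 181, 268, 219, 0 and 108 in the same order. A minimum of 20 UMIs gave 1862 genes lower than in other distal cells, 703 lower than in C1q macrophages and 455 lower than in cycling cells. A minimum of 500 UMIs gave 495 higher and 444 lower than in other distal cells, 522 higher and 169 lower than in C1q macrophages, and 63 lower than in cycling cells. The mean of each cell's CPM, by fold alone, gave 1325, 1682 and 188 genes higher than in other distal, C1q and cycling cells and 427 lower than in cycling cells. Genes higher than in cycling cells numbered 3 with at least 6 alveolar genes, 15 with the rule on thinned cells and 12 without the top 5% of cells by UMIs. A mitochondrial maximum of 5% left 5 niche members. Leiden resolution 1.0 gave 13 sub-clusters.

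Against C1q macrophages, 309 of 351 alternative list medians and 343 of 384 values of named genes stayed inside the range given by their reported value and its error. Among medians whose range excluded 0, a minimum of 20 UMIs turned the sign of 2. They went to -1.63 for cytokines and growth factors and -1.74 for proteases and inhibitors. That minimum adds genes of low count to both lists. The median of scavenger and uptake receptors, reported as -0.05, ran from -0.13 to 1.04 over the alternatives, so its sign was not stable. No paired analysis was possible because each group is 1 library. Replicates could not be left out for the same reason.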

Other observations

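Some genes that varied among the alveolar macrophages were found in the same cells. In the 1058 thinned distal members without markers of another class, the 27 cells with a UMI of Rsad2, an antiviral interferon gene, averaged 4.30 UMIs of Isg15, against 0.247 in the other 1031. The 125 cells with Mt2 averaged 9.90 UMIs of Mt1, its partner metallothionein, against 1.48 in the rest, and the 293 with H2-Eb1 averaged 3.06 UMIs of H2-Aa against 0.495 in 765. Spearman's rho over the 1058 cells was 0.72 between H2-Aa and Cd74, 0.43 between the summed type I interferon and class I genes, and 0.36 between the type I interferon and interferon gamma sums. All points share 1 library and 1 depth, so these values describe its cells and carry no test.

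Several genes stood apart from what their names recall, and they were picked after their values were seen. Mmp8, a neutrophil collagenase gene, kept a level of 38.7 CPM in the members without markers of another class, where S100a9 was at 12.6 CPM. Epcam, an epithelial gene, was in 32.7% of those members, while Krt8, Krt14 and Cldn4 had no UMI in any member.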
